A study of Mus musculus with 11 samples.

Results

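Ifit3, Ifi205 and Serpina3g are 3 immune-response genes whose transcripts were listed at lower group means in ATP-treated murine enteric glial cell cultures (msEGCs) than in controls. They were chosen by these same means, with results of the data known, so their own difference between the groups is given as a description. They were found by gene symbol in the 5 deposited transcript tables, where they make up 3 of 1967 genes and 3 of 2510 transcripts. Each had 1 listed transcript, Ifit3-001, Ifi205-001 or Serpina3g-001, with equal values in the table of significant genes and in that of the cytokine response.

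The msEGCs were grown from the muscle layer of the small bowel of adult C57BL/6 mice (BL6 in the labels) with no transgene named in the labels, passed through neurospheres and differentiated into glia before use. The ATP group held 6 libraries and the control group 5, and the experiment asked how extracellular ATP, an injury signal, changes glial gene expression. The sample labels give 100 µM ATP for 6 h and name it for all 11 libraries, so the group of a library was taken from its title. Nothing in the labels says whether the libraries of a group came from separate animals. Such cultures also hold some fibroblasts, which the study stained for alpha smooth muscle actin. In bulk RNA of this kind, fewer cells of a type and less RNA per cell cannot be told apart.

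Interferons are secreted cytokines that bind receptors on nearby cells. Type I interferons act through Janus kinases on transcription factors, STAT2 and IRF9 among them, that bind a DNA element called the interferon-stimulated response element (ISRE). Interferon gamma acts mainly through another element, the gamma-activated site (GAS). Ifit3 encodes a cytoplasmic tetratricopeptide repeat protein; in human cells it binds and stabilises IFIT1, which recognises viral RNA. Ifi205 encodes a mouse member of the Ifi200 or PYHIN family, proteins whose HIN domain binds nucleic acids. Serpina3g, also known as Spi2A, encodes an intracellular serpin that inhibits cysteine cathepsins as well as serine proteases, and in mouse leukocytes it is known as a target of interferon gamma and of NF-kappaB. Glia of the gut, like astrocytes of the brain, are known to carry interferon receptors.

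The promoter sequences of the members are shown because the 3 genes had the same direction and differ in these elements. Each window runs from 250 bases before to 50 bases after the RefSeq start on build GRCm38.p6, is written 5′ to 3′ along the gene, and has motif matches in capitals. The motifs searched on both strands were ISRE as GAAA, any 2 bases and GAAA, GAS as TTCNNNGAA, and the NF-kappaB site (kappaB) as GGG, any 5 bases and CC. An ISRE match and a GAS match overlapped in none of these windows. The windows are chr19:34583279-34583578 on the plus strand for Ifit3, chr1:174031706-174032005 on the minus strand for Ifi205, chr12:104235897-104236196 on the plus strand for Serpina3g and chr19:34640639-34640938 on the plus strand for Ifit1, a neighbour of Ifit3 that was also listed as lower.
Ifit3: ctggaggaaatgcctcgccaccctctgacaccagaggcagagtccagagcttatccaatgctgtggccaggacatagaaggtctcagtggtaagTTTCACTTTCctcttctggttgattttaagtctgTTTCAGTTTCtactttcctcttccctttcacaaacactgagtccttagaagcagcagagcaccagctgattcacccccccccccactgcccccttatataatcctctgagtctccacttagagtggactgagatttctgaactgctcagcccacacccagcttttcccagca
Ifi205: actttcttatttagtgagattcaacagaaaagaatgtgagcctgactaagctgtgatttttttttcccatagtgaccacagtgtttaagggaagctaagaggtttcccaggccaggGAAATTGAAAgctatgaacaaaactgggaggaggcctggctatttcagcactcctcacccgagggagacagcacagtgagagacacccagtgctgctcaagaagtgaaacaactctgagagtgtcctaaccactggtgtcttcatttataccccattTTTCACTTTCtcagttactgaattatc
Serpina3g: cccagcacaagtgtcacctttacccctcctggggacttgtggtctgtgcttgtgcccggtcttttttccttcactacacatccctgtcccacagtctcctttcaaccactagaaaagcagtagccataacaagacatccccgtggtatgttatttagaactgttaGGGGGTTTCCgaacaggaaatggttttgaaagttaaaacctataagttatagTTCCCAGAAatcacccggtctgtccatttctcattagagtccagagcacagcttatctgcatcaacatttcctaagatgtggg
Ifit1: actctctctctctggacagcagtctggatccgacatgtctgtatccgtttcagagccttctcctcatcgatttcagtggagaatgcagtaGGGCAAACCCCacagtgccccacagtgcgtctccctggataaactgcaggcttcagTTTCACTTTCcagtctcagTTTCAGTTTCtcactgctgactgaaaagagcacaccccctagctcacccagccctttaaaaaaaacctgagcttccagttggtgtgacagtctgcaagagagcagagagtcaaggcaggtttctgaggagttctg

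In the Ifit3 window, both capital runs are ISRE matches on the opposite strand, 156 and 122 bases before the start. The Ifit1 window has the same arrangement, with ISRE matches 104 and 85 bases before the start, and also a run of overlapping kappaB matches from 160 bases before it. The Ifi205 window has 1 ISRE match 134 bases before the start and another 23 bases after it. The Serpina3g window has no ISRE match in these letters; its capitals are a kappaB match 85 bases and a GAS match 33 bases before the start. In the plot of motif positions, ISRE matches thus appear in the windows of Ifit3, Ifi205, Ifit1 and Stat2 and in that of Serpina3g the other motifs. Of 32851 promoter windows in the RefSeq table, 3.44% hold an ISRE match, 8.30% a GAS match and 50.8% a kappaB match. A match describes letters only, and binding was not measured.

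**Figure D1:**
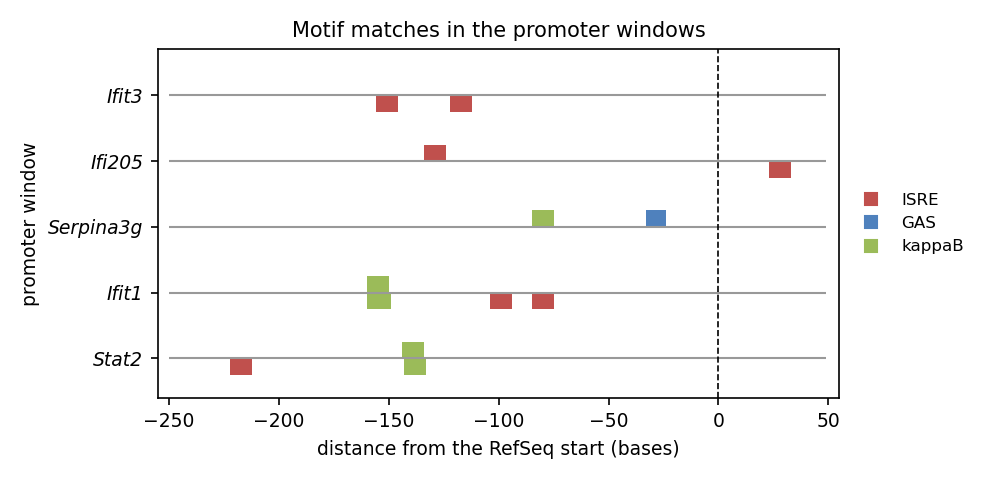
Matches of ISRE, GAS and kappaB in the promoter windows of Ifit3, Ifi205, Serpina3g, Ifit1 and Stat2, by distance from the RefSeq start in bases; boxes above a line lie on the gene's strand and boxes below it on the other. Ifit3 and Ifit1 each have 2 ISRE matches on the opposite strand, and Serpina3g has 1 kappaB and 1 GAS match.

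Serpina3g, the protease inhibitor, had the largest difference of the 3. Its authors' mean was 40.4 in the control group and 3.998 in the ATP group, on the depth-scaled signal of the deposited table. The ATP mean was thus 9.90% of the control mean, a 10.1-fold lower value (log2 ATP over control -3.34). Summed over libraries, the control cultures held 89.4% of the total signal of 226.

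Ifi205, the PYHIN gene, had an authors' mean of 44.4 in control msEGCs and 8.19 after ATP. This is 18.5% of the control mean, or 5.41-fold lower (log2 -2.44), with 81.9% of the total signal of 271 in control libraries. Ifit3, the tetratricopeptide repeat gene, had an authors' mean of 11.1 in control msEGCs and 3.85 after ATP. It stood at 34.6% of the control mean, 2.89-fold lower (log2 -1.53), with 70.7% of its total signal of 78.8 in control libraries. By fold the order was Serpina3g, Ifi205, Ifit3.

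The tables give 1 mean per group and no value per library, so no standard deviation, test or overlap of the groups can be given, and it is unknown whether neighbours in this order differ beyond the spread between cultures. It is likewise unknown whether a mean rests on a few libraries. For each of the 3 transcripts the authors' total was met by weighting the means with the group sizes, 6 for ATP and 5 for control, which ties each mean to its labelled group size. Library codes in the titles fall into 3 series, of which 1 held 3 ATP libraries, 1 held 2 control libraries and 1 held 3 of each group. Each mean pools all libraries of its group, the shared series included, so code series and treatment cannot be told apart in any fold here.

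**Figure D2:**
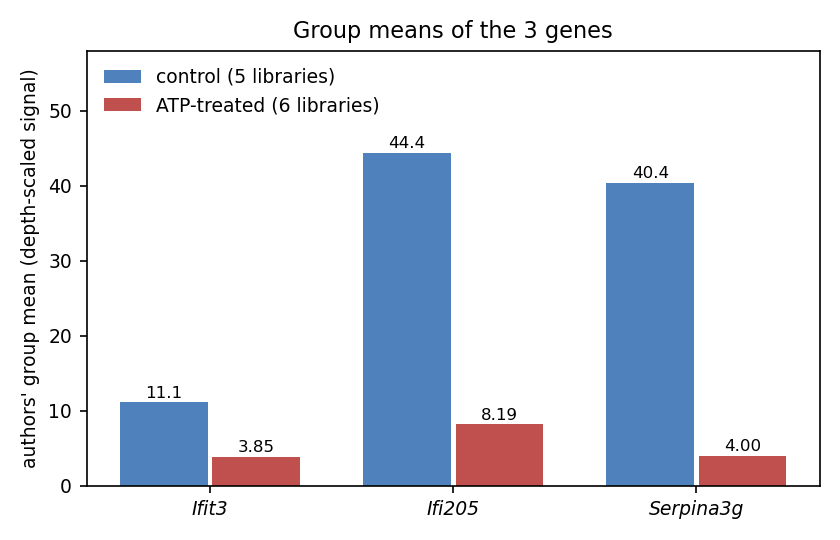
Authors' group means of Ifit3, Ifi205 and Serpina3g in depth-scaled signal, for control (5 libraries) and ATP-treated (6 libraries) msEGCs; bars start at 0 and have no error bars because the tables hold no value per library. The ATP mean is lower for each gene, from 44.4 to 8.19 for Ifi205 and from 40.4 to 3.998 for Serpina3g.

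The scale of these means is small. The gliosis table, whose values look like unscaled estimated counts, shares 49 transcripts with the other tables when Gfap is left out. Across these 49, the gliosis values were larger by a median factor of 11.7 in the ATP group and 10.1 in the control group. Multiplied by these factors, the means correspond to about 46.8 estimated counts per ATP library and 409 per control library for Serpina3g. The corresponding values were 96.0 and 449 for Ifi205, and 45.1 and 113 for Ifit3. These are approximate counts, since library depths were not among the values used.

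Reads of 50 bases from the 3′ end were counted, and each member lies in a cluster of near copies, so part of its reads could belong to a neighbour. In GENCODE M21 (GRCm38), Ifit3 lies at chr19:34583531-34588731 among 6 Ifit genes, Ifi205 at chr1:174011998-174031810 among 13 genes of the Ifi200 locus, and Serpina3g at chr12:104236245-104241939 among 11 Serpina3 genes. Of the last 500 bases of the coding transcript of Ifi205, 357 of 451 windows of 50 bases (79.2%) occur letter for letter in Ifi211 or Mndal. The value listed for Ifi205 may therefore hold reads of these paralogs. For Ifit3 the share was 14.9%, all with Ifit3b. For the longest coding transcript of Serpina3g it was 2.44%, with Serpina3f, while its shorter coding transcripts shared 54.1% and 14.0% with other Serpina3 genes. Ifit1 shared none. The authors' transcript names follow another scheme, and which of these models they counted is unknown.

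Few of the clustered neighbours were listed. Besides Ifit3, Ifit1 alone of the 6 Ifit genes had a row among the significant genes, at 9.16 in controls and 3.36 after ATP (2.73-fold lower). Its fold was close to that of Ifit3, and its 3′ end is distinct in sequence. No other gene of the Ifi200 locus had a row. Of the Serpina3 genes, Serpina3g was the only 1 with a row in that table, and Serpina3n, a secreted serpin known as a marker of reactive astrocytes, was listed among the gliosis genes. A gene without a row has no value here, which does not show that it was unchanged.

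The table of significant genes holds 2071 transcripts of 1829 genes, each with a difference of at least 1.5-fold, so every row was picked by the authors on the same contrast. Counting 1 transcript per gene, 51.4% of its genes were lower after ATP, 31.3% were lower by at least 2-fold and 19.6% higher by at least 2-fold. All 3 members were lower by at least 2-fold, as their choice required, and nothing is read from that count. From the lowest ratio upwards Serpina3g ranked 3, Ifi205 35 and Ifit3 294 of the 2071 transcripts. The rows next to Serpina3g in that order were 2810433D01Rik-001 (12.3-fold lower) and Dkk2-001 (8.11-fold lower), with a gap on either side, whereas Ifit3 lay between Elk3-002 and Adam19-001, both 2.89-fold lower. Among the 174 cytokine response transcripts, Serpina3g had the lowest ratio, Ifi205 ranked 3 and Ifit3 ranked 23. The plot of all listed transcripts shows Ifi205 and Serpina3g at the lower edge for transcripts of their control mean, and Ifit3 inside the cloud.

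**Figure D3:**
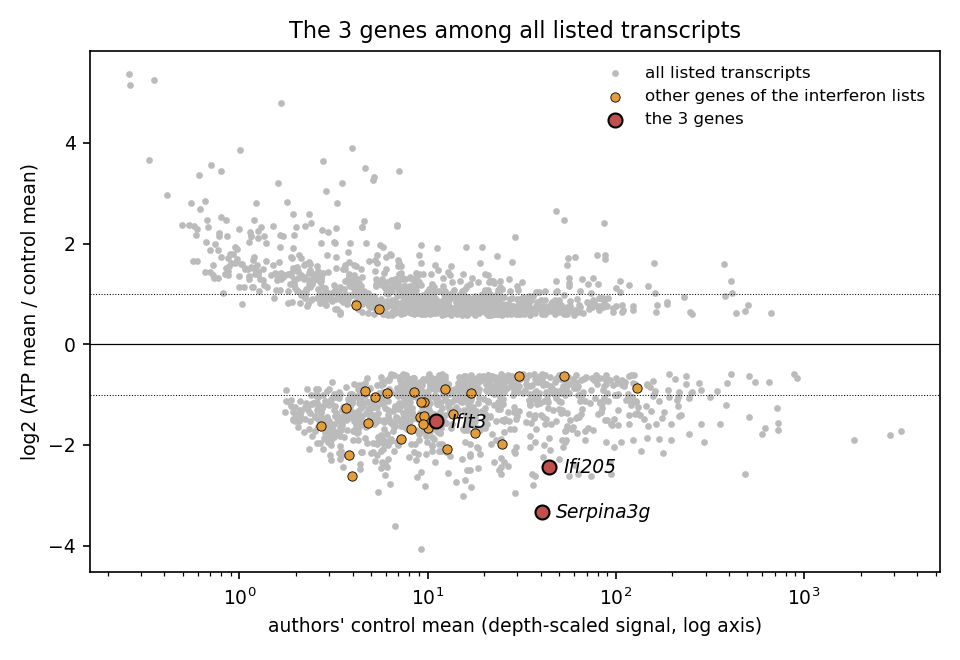
Log2 ratio of the ATP mean over the control mean against the authors' control mean (depth-scaled signal, log axis) for the 2071 transcripts of the table of significant genes; dotted lines mark 2-fold. Serpina3g (log2 -3.34), Ifi205 (-2.44) and Ifit3 (-1.53) are labelled, and of the other genes of the interferon lists all but 2 lie below 0.

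Type I interferon effectors, the products that act against viruses and to which Ifit3 belongs, were listed in 1 direction. Of 71 such genes, 17 had a row among the significant genes, all 17 were lower after ATP, and 13 of them by at least 2-fold, against 51.4% and 31.3% of all listed genes. The median log2 ratio over the 17 was -1.53, against -1.15 over the 940 listed genes that were lower. Ifit3, chosen by its means, is counted in the 17 and in the 13 and gives their median itself, so nothing is read from its place among them. By at least 2-fold, these counts are 76.5% of the 17 and 60.9% of the 940 lower genes. Ifi27l2a, a small interferon-alpha-induced protein, had means of 12.6 in controls and 2.99 after ATP (4.22-fold lower). Trim30a, a tripartite motif protein known in mouse macrophages as a brake on Toll-like receptor signalling, had 25.0 and 6.30 (3.97-fold lower). Ifitm1, a membrane protein that restricts virus entry, had 7.27 and 1.98 (3.67-fold lower). Gm4951 had the largest fold of the list, 4.59, on low means of 3.81 and 0.83. Other well-known genes of the list, among them Isg15, Mx1 and Irf7, had no row.

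Of 32 genes that carry the interferon signal, from ligands and receptors to kinases and transcription factors, 2 had a row. Stat2, a transcription factor of the type I pathway, was 2.23-fold lower in both listed transcripts, with means of 9.53 in controls and 4.28 after ATP for the larger of them. Ifngr1, the ligand-binding chain of the interferon gamma receptor, had means of 53.3 and 34.6 (1.54-fold lower). No interferon gene of that list had a row. Among 19 sensors of nucleic acids and their adaptors, 5 had a row and the directions were mixed. The RNA sensors Ifih1 (MDA5) and Ddx58 (RIG-I) were 2.06-fold and 1.94-fold lower and the kinase Ikbke 2.40-fold lower. Mb21d1, the DNA sensor cGAS, was higher after ATP at 7.14 against 4.17, and so was the ubiquitin ligase Traf6 at 8.93 against 5.52.

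GTPases and antigen presentation genes induced by interferon gamma had 4 of 42 genes listed, all lower and 3 of them by at least 2-fold. Tgtp1, Iigp1 and Irgm1, GTPases of the family that acts against intracellular pathogens, were 6.10-fold, 3.38-fold and 3.22-fold lower, with control means of 3.96, 17.8 and 8.13. Psme1, a subunit of the proteasome activator, was 1.54-fold lower. Over the 5 interferon lists, 28 of 176 genes had a row, 26 of them lower and 2 higher, where 51.4% of all 1829 listed genes were lower. By at least 2-fold 19 were lower and none higher, against 31.3% and 19.6% of all listed genes. Without Ifit3 and Ifi205 the counts were 24 lower, 2 higher and 17 past 2-fold of 26, with a median fold of 2.70 over the 24 lower genes and a range from 1.54 to 6.10. Ifit3 thus lay near the middle of the listed interferon genes and Ifi205 near their lower end, where only Tgtp1 had a larger fold. The lists were drawn up with results of these data known, so the counts are a description. In the cytokine response table, 10 genes of these lists had a row and 9 were lower, all by at least 2-fold. Without Ifit3 and Ifi205, 8 had a row and 7 were lower, again all by at least 2-fold. Of all 174 transcripts there, 55.7% were lower and 24.1% by at least 2-fold.

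**Figure D4:**
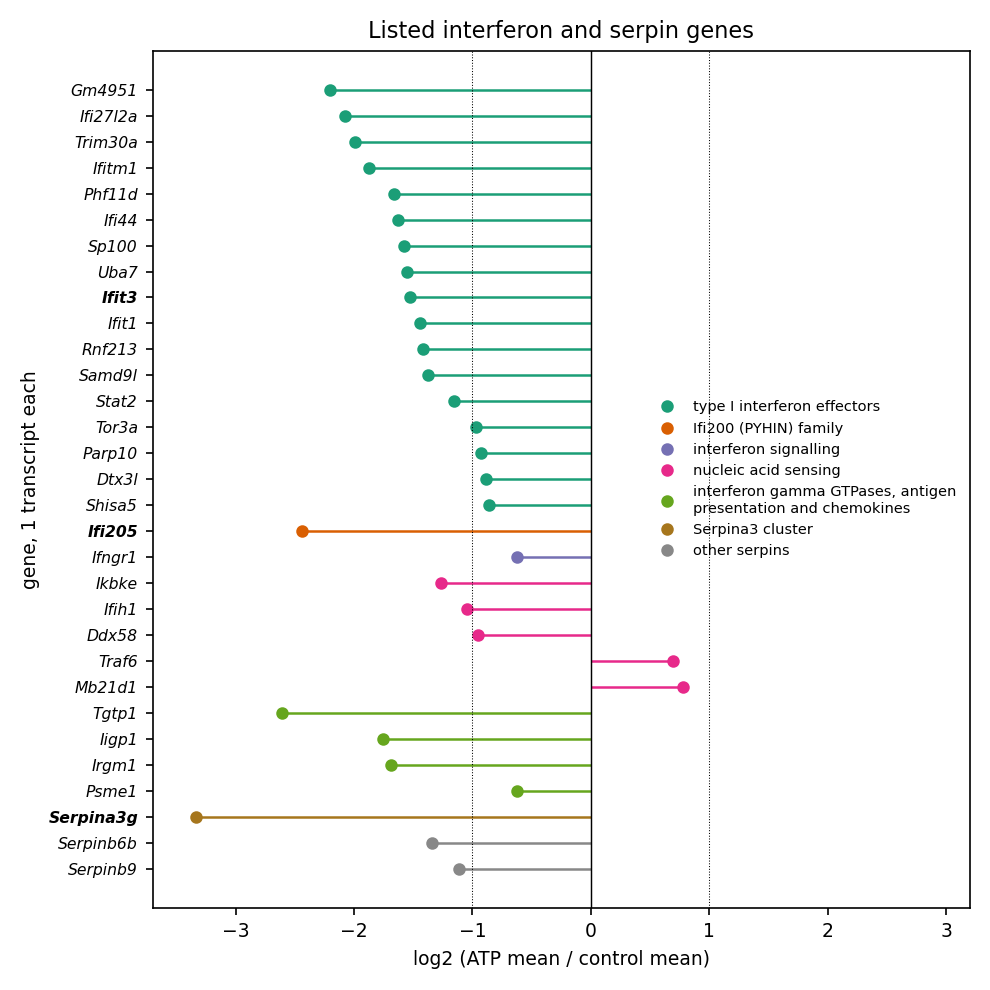
Log2 ratio of the ATP mean over the control mean for each gene of the interferon and serpin lists that had a row among the significant genes, shown as its largest transcript, coloured by list, with the 3 members in bold and dotted lines at 2-fold. Points run from -3.34 for Serpina3g to 0.78 for Mb21d1, and 2 genes, Mb21d1 and Traf6, lie above 0.

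The gliosis table also lists transcripts with hardly any difference between the groups, and it gives another view of interferon-inducible genes. Its values look like unscaled estimated counts. Of the 5 interferon lists, 8 genes had a row there, and all 8 were lower after ATP, none of them by 2-fold, where 46.8% of the 222 gliosis transcripts were lower and 18% by at least 2-fold. The class I light chain B2m had means of 12477 and 9246 (1.35-fold lower), the immunoproteasome subunit Psmb8 121 and 81.3 (1.49-fold lower), and the chemokine Ccl2 352 and 341 (1.03-fold lower). Dividing by the ratio between the scales of the tables, a factor of 1.16, gave 1.56-fold for B2m, 1.72-fold for Psmb8 and 1.196-fold for Ccl2, and the minor transcript H2-D1-005 then passed 2-fold at 2.03, while the largest transcript of each gene stayed below it. The median log2 ratio of the whole table was 0.06 as deposited and -0.15 after this division, with 54.1% of transcripts then lower and 22.5% by at least 2-fold. So the differences of antigen presentation genes listed there were smaller than those of Ifit3 and Ifi205, on another scale.

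Among inhibitors related to Serpina3g, every listed gene was lower, where 51.4% of the significant genes and 46.8% of the gliosis transcripts were lower. The rows are few, so no pattern of the serpin family is read. Serpina3n had means of 10552 and 4310 estimated counts (2.45-fold lower) and Serping1, the C1 inhibitor, 11921 and 4742 (2.51-fold lower). Dividing by the same factor of 1.16 gave 2.83-fold and 2.91-fold. Of 27 serpins outside the Serpina3 cluster, 2 had a row among the significant genes. Serpinb6b, an intracellular serpin, had means of 28.8 and 11.4 (2.53-fold lower), and Serpinb9, the inhibitor of granzyme B, had 15.1 and 7.004 (2.16-fold lower). All of these folds were below the 10.1 of Serpina3g. Of 13 cysteine and aspartyl cathepsins, Ctsc (20.1 and 6.45, 3.11-fold lower) and Ctso (18.8 and 8.93, 2.11-fold lower) had rows. Ctsb, a known target of Serpina3g in mouse, had 9818 estimated counts in controls and 10665 after ATP in the gliosis table, slightly higher as deposited and 1.07-fold lower after division by the same factor, so no direction is read.

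The ISRE recurred in listed interferon genes. Of the 24 lower genes of the interferon lists other than the members, 19 had a promoter window and 9 of these (47.4%) held an ISRE match, among them Ifit1, Stat2, Irgm1, Tgtp1 and Trim30a. Over all listed genes with a window the share was 4.46% of 672 lower genes and 2.69% of 669 higher genes, and over all 27025 genes with a window 3.99%. For GAS the shares were 10.5% of the 19, 9.82% of lower and 7.77% of higher listed genes, and 9.55% of all genes. For kappaB they were 47.4%, 74.4%, 73.7% and 53.5%. The GAS share of the 19 was thus close to the other shares, and their kappaB share was below the others. Interferon genes are known to carry the ISRE, so its share describes the lists.

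The genes nearest to each member in both log2 means, 1 transcript per gene, were on none of the interferon lists. They were Gpr176 (2.78-fold lower), Pear1 (3.15-fold) and the interleukin 17 receptor Il17ra (2.68-fold) for Ifit3, at distances of 0.087 to 0.098 log2 units. For Ifi205 they were the transcription factor Ebf1 (4.75-fold), the amine oxidase Aoc3 (3.87-fold) and Pdlim2 (4.09-fold), at 0.135 to 0.344. For Serpina3g they were the metalloprotease Adamts15 (6.95-fold), the basement membrane collagen Col4a1 (7.73-fold) and Lmcd1 (5.99-fold), at 0.412 to 0.610. Likeness here rests on 2 group means alone, not divided by transcript length, and Serpina3g had the most distant neighbours.

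Markers of other cells differed beside these genes. Over all listed features, 51.4% of the significant genes and 46.8% of the gliosis transcripts were lower. The marker rows are few, so no shift in cell makeup is read from their directions. Of 10 fibroblast markers, Col3a1 and Col1a2 were listed among the significant genes. Col3a1-001 had means of 2870 in controls and 826 after ATP (3.47-fold lower). Col1a2 had only a low-signal transcript, Col1a2-003, at 8.18 and 2.06 (3.97-fold lower). Dcn was listed in the gliosis table (2.29-fold lower for Dcn-202), so 3 of 10 had rows and all were lower after ATP. Of 8 smooth muscle markers, Lmod1 had a row, with low means of 3.27 and 1.28 (2.56-fold lower). Of 15 macrophage markers none was listed among the significant genes, and in the gliosis table Cd14 was lower (41 and 22.5 estimated counts) and Cd68 higher (22.6 and 43.05). None of 7 endothelial markers had a row. Of 10 enteric neuron markers, 3 had a row among the significant genes and went the other way, higher after ATP. Elavl3 had means of 15.4 in controls and 40.6 after ATP, Uchl1-002 82.1 and 155, and Ret-002 8.73 and 14.2. Their transcripts listed only outside the significant genes differed less, Uchl1-001 at 40.2 and 59.6 and Ret-001 at 10.3 and 12.4. Of 10 glial markers only Gfap had a row, with deposited means of 64.5 in controls and 108 after ATP for Gfap-201, but its total was met only with the group sizes exchanged, so its direction is not read from these tables. Defining markers such as Ptprc, Sox10 and S100b had no row, so the cell type named in the labels could not be checked further. The part of fibroblasts, neurons and other cells in the lower means of Ifit3, Ifi205 and Serpina3g was not tested.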

How the data were processed

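RNA of 11 msEGC libraries (6 ATP, 5 control; QuantSeq 3′ mRNA-Seq, single-end reads of 50 bases) was processed by the authors in Partek; no label, header or methods text names the aligner, build, annotation or scaling. The deposited group means and totals of 4 transcript tables look like a signal scaled for depth. Those deposited in the gliosis table look like estimated counts without scaling. Means are the authors' least squares means; depth and spread per library are unknown, and their precision cannot be given. The authors' p-values, adjusted p-values, ratios, fold changes and enrichment scores were not used, nor was a table of GO terms other than its gene numbers.

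Ratios of means were computed with no pseudocount (Python 3.11.15, pandas 2.3.3), and no test was made. Groups came from the library titles. Members, gene lists (14) and limits were chosen with earlier results of these data known. Named genes were the members, up to 4 listed genes per interferon or Serpina3 list, table and direction, up to 3 per other list, and the 3 nearest genes in log2 means; genes outside this rule are said to be so. Sharing of 3′ ends was added after seeing the data, as exact 50-base windows. Gene symbols were matched as written, and none of the lists gained a row through an older symbol. The steps were tested on simulated data. Protein identity to paralogs was not analysed here. Alternatives were pseudocounts of 1 and 5, limits of 1.5-fold and 3-fold, a larger mean of at least 10, all transcripts, and the gliosis scale factor.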

Additional observations from a re-analysis of the deposited data

How the results depend on the processing

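With a pseudocount of 1 on both means, the folds of Ifit3, Ifi205 and Serpina3g were 2.50, 4.93 and 8.28, and with 5 they were 1.82, 3.74 and 5.05, so Ifit3 then stood below 2-fold. The share of listed transcripts with the ratio of Ifi205 or a lower one was 0.773% with the pseudocount of 1, against 1.69%. For Serpina3g it was 0.0483% with that pseudocount and 0.0759% among transcripts with a larger mean of at least 10, against 0.145%. Of the interferon list genes, 10 were lower by at least 3-fold, and 7 by 2-fold with a larger mean of at least 10, against 19, since the stricter filter keeps fewer genes. At 3-fold, 1 serpin remained among the significant genes, Serpina3g, against 3, and 0 in the gliosis table, against 2. The other 20 of 33 alternatives stayed within 1.5 times the reported value. No library could be left out and no paired analysis was possible because the tables hold no value per library.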

Other observations

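Further interferon-inducible genes stood in the table of significant genes outside the lists and were named after their values were seen. Other such genes outside the lists were not counted in either direction, so nothing is read from these rows. Of all listed genes, 51.4% were lower after ATP and 31.3% by at least 2-fold. Gvin1, a very large interferon-inducible GTPase, had authors' means of 25.4 in controls and 5.03 after ATP (5.05-fold lower), close to the fold of Ifi205. Ly6e had 9.06 and 2.62 (3.46-fold lower) and the GTPase Ifi47 had 6.66 and 2.13 (3.12-fold lower). Ube2l6, which conjugates the ubiquitin-like protein ISG15, was 2.14-fold lower, and Uba7, the activating enzyme of the same conjugation and a gene of the type I list, was 2.94-fold lower. Pycard, the inflammasome adaptor whose expression is known to depend on Ifi205 in mouse macrophages, had 9.71 and 3.32 (2.93-fold lower).

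In the authors' table of GO terms, 11 of 44 genes annotated to the response to interferon-beta (25.0%) were in the authors' list, whose name no source gives, against 13.8% of all 14200 genes annotated to a biological process. For the response to interferon-gamma the number was 14 of 95 (14.7%). Of 22 terms with the word interferon and at least 10 genes, 16 had a share above that of all genes. The terms overlap, and the table gives no direction. Ifit3 and Ifi205 were not removed from these counts and may be among them. The shares are therefore a description and no separate support.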
